A study of Mus musculus with 2 samples.

Results

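The transcripts of the IL-20 subfamily of cytokines, of the receptors that these cytokines share with IL-22, and of IL-10 with its receptor were followed across the cells of psoriasiform mouse skin. The group comprised 10 genes of the 31053 counted in both libraries, picked by symbol. They were the ligand genes Il19, Il20, Il24 and Il10, the receptor chain genes Il20ra, Il20rb, Il22ra1, Il10ra and Il10rb, and Il22ra2, which encodes a soluble receptor. All 10 had at least 1 unique molecular identifier (UMI, a tag that marks 1 captured transcript) in the epidermal library, and 7 had one in the dermal library.

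IL-19, IL-20, IL-24 and IL-22 belong to the IL-10 family. IL-19, IL-20 and IL-24 signal through a receptor of the IL-20Rα and IL-20Rβ chains, and IL-20 and IL-24 can also use IL-22Rα1 paired with IL-20Rβ. IL-22 uses IL-22Rα1 paired with IL-10Rβ, and IL-10 uses IL-10Rα paired with the same IL-10Rβ, so that Il10rb serves receptors of epithelial and of immune cells. These receptors act through Janus kinases and STAT3. The protein of Il22ra2, IL-22 binding protein, lacks a membrane anchor and captures IL-22. In skin, lymphocytes are known as the source of IL-22, and keratinocytes respond to it and to the IL-20 subfamily with thickening of the epidermis and with antimicrobial proteins and stress keratins. IL-10 restrains macrophages and dendritic cells.

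A pair of single-cell 3′ RNA libraries were analysed, 1 of epidermis and 1 of dermis, both from wild-type C57BL/6 mice aged 10 weeks whose ears received imiquimod, a Toll-like receptor agonist that induces psoriasis-like inflammation, for 5 days, as the labels state, although the study's methods give a younger age for its imiquimod model. According to the study's methods, the layers were parted with Dispase, all live cells of the epidermis were taken, and the dermis was sorted for live CD45+ cells. No untreated library entered the comparison, and the number of mice behind each library was not given in the sources used here, so no value can be ascribed to imiquimod. With a single library for either tissue there were no replicates to test against. Every interval below is therefore an exact 95% interval that covers counting error only and leaves out the spread between cells or mice.

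Il24, Il20, Il19 and Il10 lie side by side on chromosome 1. In the GENCODE M21 annotation of GRCm38, Il24 (ENSMUSG00000026420) spans chr1:130882074-130887454, Il20 (ENSMUSG00000026416) chr1:130906985-130911451 and Il19 (ENSMUSG00000016524) chr1:130932656-130940115, all on the minus strand, and Il10 (ENSMUSG00000016529) chr1:131019845-131024974 on the plus strand. A pair of the receptor genes also neighbour each other on chromosome 10, Il22ra2 (ENSMUSG00000039760) at chr10:19621998-19634681 and Il20ra (ENSMUSG00000020007) at chr10:19712570-19760053, both on the plus strand. Il20rb (ENSMUSG00000044244, minus strand, chr9:100457719-100486788) and Il10ra (ENSMUSG00000032089, minus strand, chr9:45253837-45269149) lie apart on chromosome 9, Il22ra1 (ENSMUSG00000037157) at chr4:135728172-135752140 and Il10rb (ENSMUSG00000022969) at chr16:91406164-91425834, both on the plus strand. All 10 are protein-coding genes.

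The sequences upstream of Il19 and Il20 are shown because these neighbouring ligand genes stood far apart in their UMI counts. They come from the RefSeq promoter table for GRCm38.p6, in which 5 of the 10 genes had an entry, and end at the base before the annotated transcript start. Capitals mark a match to TTCNNNGAA, the core of the element that STAT factors bind, searched on both strands.
Il19, chr1:130940116-130940365, minus strand: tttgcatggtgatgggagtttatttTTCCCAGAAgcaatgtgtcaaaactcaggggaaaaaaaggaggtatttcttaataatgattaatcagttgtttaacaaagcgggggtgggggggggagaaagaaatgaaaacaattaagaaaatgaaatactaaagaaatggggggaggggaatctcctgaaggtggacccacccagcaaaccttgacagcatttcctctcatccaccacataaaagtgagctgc
Il20, chr1:130911452-130911546, minus strand: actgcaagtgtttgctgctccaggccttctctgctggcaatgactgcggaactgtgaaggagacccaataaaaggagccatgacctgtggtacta
The match begins 225 bases before the Il19 transcript start, and the shorter Il20 window held none. Over the 250 bases upstream of all 32851 promoters of the table, 2306 held this motif, or 7.02%. The AP-1 motif TGANTCA, present in 2217 of these promoters or 6.75%, was found in neither sequence, and was found once each in the windows upstream of Il22ra1 (250 bases) and Il20ra (233 bases), which held no match to TTCNNNGAA. A match is a description of the letters, not evidence of a bound factor.

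After cells with under 200 genes or over 10% mitochondrial UMIs were left out, the dermal library held 4747 cells with a median of 7010 UMIs and the epidermal library 4173 cells with a median of 25918. Cell types were gated by marker genes that included none of the 10 genes. In the epidermis, Krt5 and Krt14 were found in all 2606 basal keratinocytes, and Krt1 stood at 2507 CPM (UMIs of the gene for each 1000000 UMIs of the cells in a gate) in 489 spinous keratinocytes against 92.2 in basal ones. Of the 6 markers of the granular layer, Flg2, Lce1a1, Flg and Lce3b had 0 to 5 UMIs in either gate, Lor stood at 4.80 CPM in basal and 3.48 CPM in spinous cells and Cnfn at 5.01 and 81.6 CPM, and no granular gate was formed. The dermal library held 380 fibroblasts (Col1a1 at 1251 CPM) and 45 endothelial cells despite the CD45+ sort. Of the barcodes, 45 occurred in both libraries, and without them none of the 31 results recomputed moved beyond its limit. That limit was counting error or, for counts of genes past 2-fold, a set fold change of the count.

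**Figure D1:**
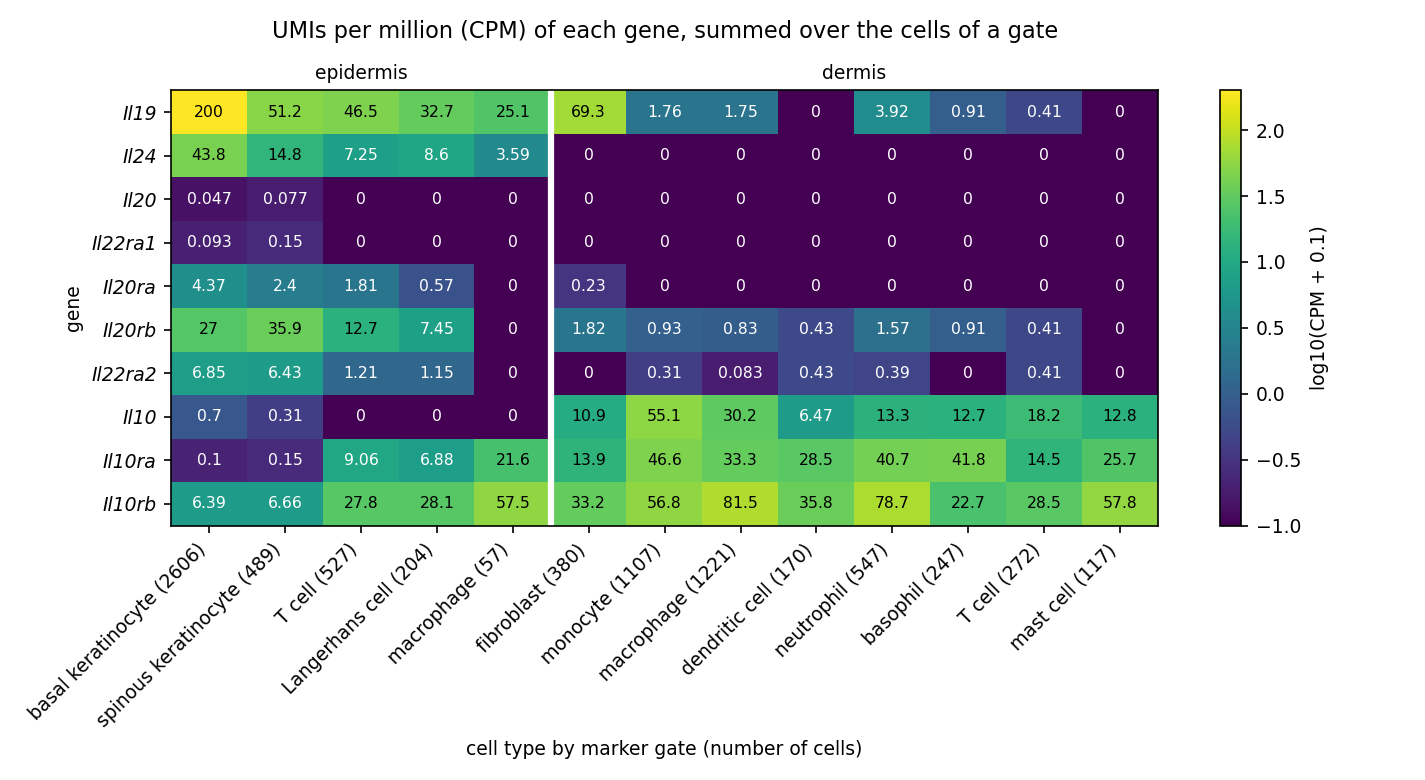
Level of each of the 10 genes (rows) in cell types of the epidermal and dermal libraries (columns, with numbers of cells) in CPM, summed over the cells of a gate; colour shows log10(CPM + 0.1). Il19 and Il24 were highest in basal keratinocytes at 200 and 43.8 CPM, Il19 had a second high value of 69.3 CPM in dermal fibroblasts, and Il10 and Il10ra were highest in dermal monocytes at 55.1 and 46.6 CPM.

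Il19 was the most abundant ligand transcript of the group, and keratinocytes held nearly all of it. The epidermal library had 18096 Il19 UMIs, of which 98.9% lay in keratinocyte gates (interval 98.7 to 99.0%). These gates also held most UMIs of all genes, with 85802955 in basal, 12913776 in spinous and 1010330 in upper follicle keratinocytes of the 105033363 kept. The epidermal shares given here and below should be read against that. Basal keratinocytes had 200 CPM (197 to 203), spinous keratinocytes 51.2 CPM (47.4 to 55.2) and the 49 cells of the upper hair follicle gate 37.6 CPM (26.6 to 51.6). The basal level was thus 3.91-fold that of spinous cells (3.62 to 4.24) and 5.33-fold that of follicle cells (3.88 to 7.53). When all epidermal cells were clustered by their expression, a single cluster (e1) held 605 of the 2606 basal keratinocytes and 73.3% of their Il19 UMIs, at 449 CPM. The basal cells of the other large basal clusters, e0 (693 cells) and e2 (533 cells), had 55.6 and 54.4 CPM, close to the level of the spinous gate. Since Il19 was among the genes clustered, these levels are a description.

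Within the basal gate, Il19 was very unevenly spread. Of 2606 cells, 885 (34.0%) had no Il19 UMI and 579 (22.2%) had 1, while the richest had 220. The 72 cells with 50 or more, 2.76% of the gate, held 36.3% of its Il19 UMIs, and the 344 cells with 10 to 49 held another 44.0%. The richest 10% of the cells held 68.7%. At least 1 UMI was found in 66.0% of basal keratinocytes (64.2 to 67.9%; median 32858 UMIs per cell), against 11.6% of epidermal T cells (median 2351 UMIs). With every cell thinned to 1000 UMIs, these shares were 10.8% (9.61 to 12.1%) and 4.31% (2.72 to 6.46%), with 67 and 17 shallower cells left out.

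**Figure D2:**
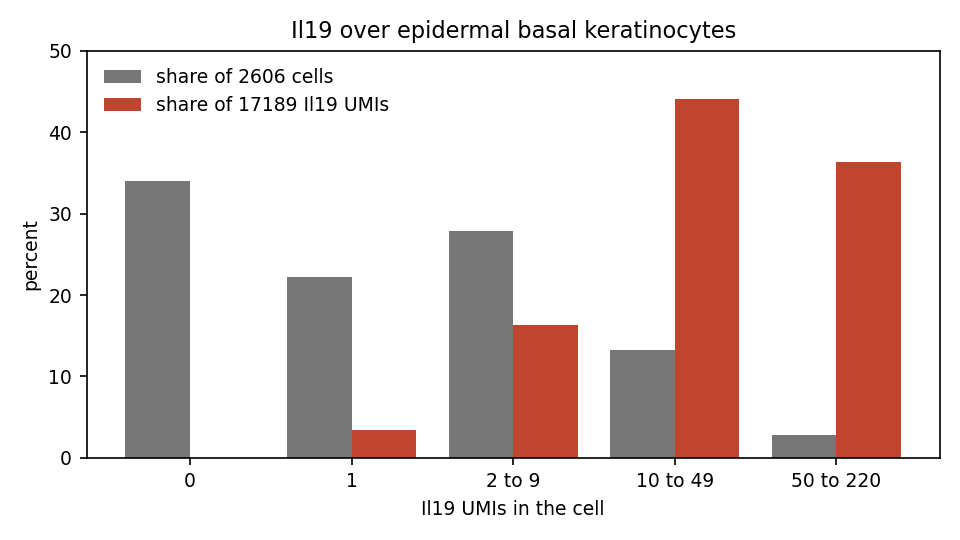
Share of the 2606 epidermal basal keratinocytes (grey bars) and of their 17189 Il19 UMIs (red bars), in percent, by the number of Il19 UMIs in the cell. Cells with 10 to 49 UMIs were 13.2% of the gate and held 44.0% of the Il19 UMIs, and cells without any were 34.0%.

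Relative to its keratinocyte level, Il19 in most epidermal immune gates compared did not exceed Krt5 and Krt14. Il19 stood at 46.5 CPM in T cells, 32.7 in Langerhans cells and 25.1 in macrophages, which is 25.9%, 18.2% and 14.0% of its level over all 3144 keratinocytes. Krt5 and Krt14, which immune cells should lack, reached 36.1%, 24.0% and 19.3% of their keratinocyte level in the same gates. Whether these Il19 UMIs came from free keratinocyte RNA or from the immune cells was not tested. In the 48 monocytes Il19 was at 29.6% and the keratins at 23.0%, on 10 Il19 UMIs whose interval of 25.5 to 97.7 CPM spans that level, and in the 34 neutrophils Il19 was at 14.3% and the keratins at 46.6%, on 3 UMIs.

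Fibroblasts were the only named dermal gate of 30 or more cells with Il19 above 4 CPM. They had 305 of the 364 dermal Il19 UMIs (83.8%), or 69.3 CPM (61.7 to 77.5), in 64 of 380 cells (16.8%, 13.2 to 21.0%; 4.18% of cells thinned to 1000 UMIs). The other 4367 dermal cells had 59 UMIs, or 1.64 CPM, with never more than 2 in a cell, a 42.2-fold difference (31.9 to 56.8). Few fibroblasts carried the signal, since 17 cells with at least 5 UMIs held 236 of the 305, and the 3 richest had 39, 38 and 31. Without these 3 cells the level was 45.8 CPM. Keratinocyte RNA was nearly absent from this gate, where Krt5 and Krt14 together had 4 UMIs (0.908 CPM against 24621 CPM in basal keratinocytes), and all 305 Il19 UMIs came from the 376 fibroblasts without either keratin. Fibroblasts with a Coch UMI (205 cells, 68.4 CPM) and without one (175 cells, 70.5 CPM) did not differ beyond counting error.

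Il24, the neighbour of Il19, had 3998 UMIs in the epidermis, of which 98.9% lay in keratinocytes (98.6 to 99.2%). Its level was 43.8 CPM in basal (42.4 to 45.3) and 14.8 CPM in spinous keratinocytes (12.8 to 17.0), and over all keratinocytes there were 4.52 Il19 UMIs for each Il24 UMI (4.37 to 4.68). Il24 was more concentrated than Il19, with 71.1% of basal cells at 0 and the richest 10% holding 85.3% of the UMIs. It also had fewer UMIs, and fewer UMIs alone raise both shares. At most 97 UMIs were found in a cell. In T cells and Langerhans cells it stood at 18.3% and 21.7% of its keratinocyte level, below the keratins at 36.1% and 24.0%. In monocytes Il24 was at 26.8% against 23.0% for the keratins, on only 2 UMIs. Unlike Il19, Il24 had 0 UMIs among the 40392866 of the dermal library, which allows up to 0.0743 CPM and up to 0.0632% of the 4747 cells with a UMI. For the fibroblasts alone, with 4403657 UMIs, a count of 0 allows up to 0.681 CPM.

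Il20, which lies between Il24 and Il19, was barely detected. The epidermal library had 7 UMIs in 6 cells, 4 of them in basal and 1 in spinous keratinocytes, and the dermal library had 0. The basal level of 0.0466 CPM (0.0127 to 0.119) lay far below those of Il19 and Il24. At these counts a difference between cell types was not detectable. All are counts of 3′ tags, which do not scale with transcript length, but priming can differ between transcripts.

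The chains of the receptor for IL-19, IL-20 and IL-24 were likewise epidermal. Il20rb, the shared β chain, was the most abundant receptor transcript of keratinocytes, with 2884 epidermal UMIs of which 97.8% lay in keratinocytes (97.2 to 98.3%). It stood at 27.0 CPM in basal (26.0 to 28.2), 35.9 in spinous (32.7 to 39.3) and 37.6 in follicle keratinocytes (26.6 to 51.6), and spinous and follicle cells did not differ beyond counting error. It was less concentrated than Il19 and Il24, since the richest 10% of basal cells held 37.5%. It was not even over basal cells, with 38.4 CPM in cluster e0 and 13.6 in e1. A UMI was found in 53.3% of basal cells, and none had more than 8. Thinned to 1000 UMIs, 2.80% of basal and 4.09% of spinous cells had one, against 0.980% of epidermal T cells. In epidermal T cells and Langerhans cells Il20rb stood at 44.9% and 26.3% of its keratinocyte level, on 21 and 13 UMIs, against 36.1% and 24.0% for the keratins. In monocytes it was at 56.3% (keratins 23.0%) and in neutrophils at 91.0% (keratins 46.6%), on 3 UMIs each, and in neutrophils Il20ra and Il22ra2 also exceeded the keratins, on 3 and 2 UMIs. These counts are too few to place the levels above or below the keratins. The dermal library had 41 Il20rb UMIs, and its highest level in a gate of over 30 cells was 8.66 CPM, from 5 UMIs in 45 endothelial cells.

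Il20ra, the α chain that completes the receptor, was sparser. It had 417 epidermal UMIs, 97.8% of them in keratinocytes (95.9 to 99.0%), at 4.37 CPM in basal (3.94 to 4.84) and 2.40 CPM in spinous cells (1.63 to 3.41). There were 6.91 Il20rb UMIs for each Il20ra UMI (6.23 to 7.69). The dermal library had 2. Of the 367 keratinocytes with Il20ra, 63.8% also had Il20rb, against 51.4% of those without it. Deeper cells hold more of any transcript, and the part of depth in this gap was not tested.

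Il22ra1, the chain used by IL-22 with IL-10Rβ and by IL-20 and IL-24 with IL-20Rβ, had only 10 UMIs, all of them in keratinocytes. Of these, 8 lay in basal cells (0.0932 CPM, 0.0403 to 0.184) and 2 in spinous cells. They came from 9 of 3144 keratinocytes, or 0.286% (0.131 to 0.543%), and 5 of the 9 also had Il20rb and 2 had Il10rb. Keratinocytes had 282 Il20rb UMIs for each Il22ra1 UMI (153 to 589). In the dermis Il22ra1 was at 0 UMIs, which allows up to 0.0743 CPM.

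Il22ra2, the soluble antagonist of IL-22, was found mainly in keratinocytes and hardly at all in dendritic cells. Its 682 epidermal UMIs included 674 in keratinocytes (98.8%, 97.7 to 99.5%), at 6.85 CPM in basal (6.31 to 7.43) and 6.43 CPM in spinous cells (5.12 to 7.97), which overlapped. It was found in 18.4% of basal keratinocytes and 0.380% of epidermal T cells, or 0.709% and 0.196% after thinning to 1000 UMIs. The whole dermal library had 8 UMIs in 8 cells, of which 3 were monocytes and 1 a dendritic cell, so that the share of dendritic cells among them, 12.5%, had an interval from 0.316 to 52.7%.

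Il10rb, the chain shared by the receptors for IL-22 and IL-10, was the only receptor gene of the group with sizeable counts in both layers. Keratinocytes had 6.47 CPM (5.98 to 6.99), with basal (6.39) and spinous cells (6.66) alike within counting error. Unlike the keratinocyte genes above, it was higher in most immune gates of the epidermis, with 27.8 CPM in T cells (20.4 to 37.1), 28.1 in Langerhans cells (20.8 to 37.1) and 57.5 in macrophages (32.9 to 93.3). These are 430%, 434% and 889% of the keratinocyte level, where the keratins reached at most 36.1%. The 48 monocytes stood at 1314% of that level (keratins 23.0%). The 34 neutrophils, with 116584 UMIs of all genes, stood at 0% (keratins 46.6%). With so few UMIs, a level like that of keratinocytes or somewhat above it would not have been detectable there.

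Between the basal and the spinous gate, the ratios varied from gene to gene. Among genes with enough UMIs, the ligand genes had the lowest ratios. The intervals of Il24 and Il10 overlapped that of the receptor chain gene Il20ra, however. Of the 10 genes, 7 had at least 20 UMIs over basal and spinous cells. None was at least 2-fold higher in spinous cells, where 4.44% of all 12849 genes with that many UMIs were, and 3 were at least 2-fold lower, where 7.48% of all genes were. Those 3 were Il19 (spinous over basal 0.256, interval 0.236 to 0.276), Il24 (0.337, 0.290 to 0.390) and Il10, whose ratio of 0.443 rested on 4 and 60 UMIs and had an interval that includes 1 (0.117 to 1.19). Il20ra was also lower in spinous cells (0.549, 0.368 to 0.793), whereas Il20rb was higher (1.33, 1.20 to 1.47). Il22ra2 (0.938, 0.736 to 1.18) and Il10rb (1.04, 0.821 to 1.31) did not differ beyond counting error. The higher Il20rb of spinous cells did not hold against every basal cluster. It stood at 38.4 CPM in e0, 29.7 in e2 and 13.6 in e1, against 35.9 CPM in the spinous gate. With clusters in place of gates the ratio of Il19 was 0.442, with cells thinned to 1000 UMIs that of Il24 was 0.165, and with at most 5000 genes and 5% mitochondrial UMIs per cell that of Il20ra was 0.364. The higher level of Il19 and Il24 in the basal gate was not shared by all of its clusters. In cluster e1 Il19 and Il24 stood at 444 and 110 CPM, but in the basal clusters e0 (55.4 and 6.99 CPM) and e2 (53.0 and 7.10 CPM) both were lower than in e3 (87.1 and 16.4 CPM), the cluster in which 65.1% of cells were spinous. The Il19 level of e3 was not that of its spinous cells, however. Its 182 cells of the basal gate held 1067 of its 1556 Il19 UMIs, at 151 CPM, and the spinous gate stood at 51.2 CPM, close to e0 and e2.

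Genes known to answer IL-22 and the IL-20 cytokines were set beside them. Of 15 listed, 14 had enough UMIs, with a median ratio of 1.60. Of these, 4 were at least 2-fold higher in spinous cells, namely the stress keratins Krt6b (8.90) and Krt16 (7.42), Il1f6 (3.07), which encodes IL-36α, and the β-defensin Defb4 (23.7, on 50 and 14 UMIs). The chemokine gene Cxcl5 was lower (0.164). S100a8 (1.35), S100a9 (1.51) and Krt6a (1.81) were higher by less than 2-fold. None of 15 genes of the signalling pathway reached 2-fold in either direction (median 1.04), among them Stat3, the transcription factor downstream of these receptors (1.29, 1.20 to 1.38), and its feedback inhibitor Socs3 (0.723).

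**Figure D3:**
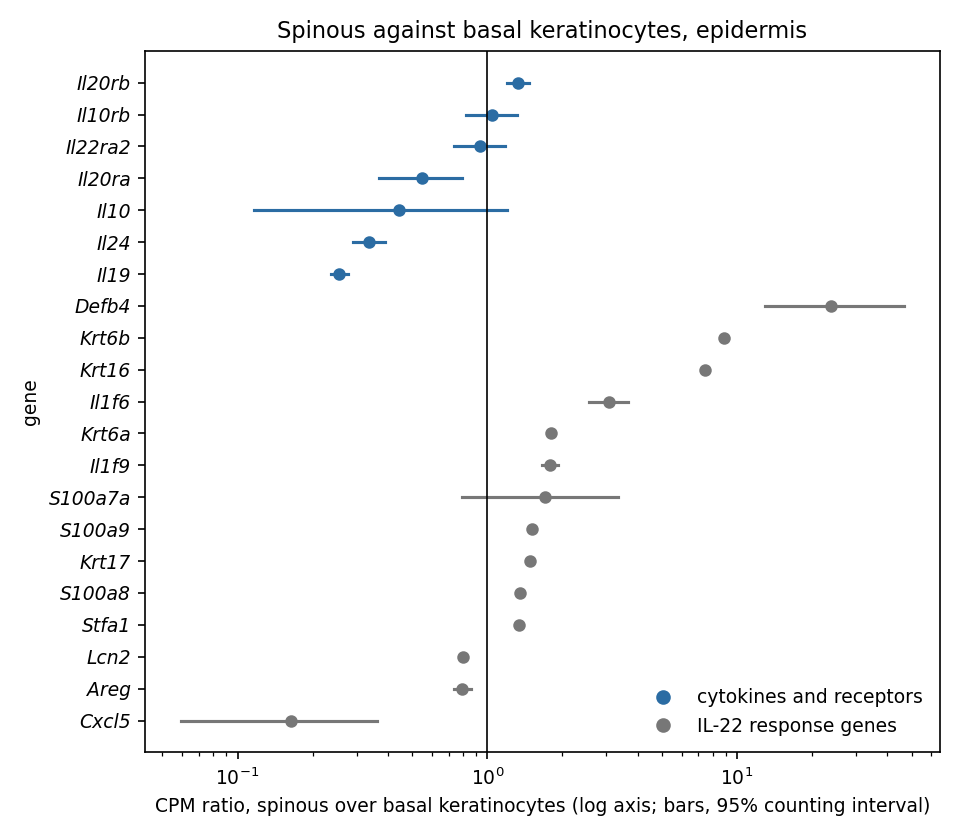
Ratio of CPM in spinous over basal epidermal keratinocytes (log axis) for the cytokine and receptor genes (blue) and the listed response genes (grey) with at least 20 UMIs; points are ratios, bars exact 95% counting intervals. Il19 (0.256) and Il24 (0.337) lie left of 1 and Il20rb (1.33) right of it, while Krt6b and Krt16 reach 8.90 and 7.42.

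Over the basal keratinocytes as a whole, Il24 was higher and 3 of the receptor genes were lower in cells rich in Il19. Cells were put in 4 classes by their own Il19 level, namely 885 with no UMI, 951 under 100 CPM, 513 from 100 to 500 CPM and 257 with at least 500 CPM, of which 51 cells lay within 10% of the highest limit. Il19 defines these classes and is not itself a result. Across them in that order Il24 stood at 9.72, 26.8, 54.5 and 157 CPM. Il20rb stood at 38.2, 28.6, 19.2 and 12.5 CPM. Il20ra stood at 6.08, 4.87, 2.97 and 1.59 CPM. Over all cells, every step was upward for Il24 and downward for both receptor chains. Il22ra2 took the same downward course, from 10.4 through 7.18 and 4.04 to 3.48 CPM, and Il10rb did not, at 5.47, 6.36, 6.74 and 7.76 CPM.

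Between the outer classes, Il24 was 16.1-fold higher in the cells with at least 500 CPM of Il19 (13.9 to 18.7). Il20rb was 3.05-fold lower (2.52 to 3.70), Il20ra 3.82-fold lower (2.26 to 6.87) and Il22ra2 2.98-fold lower (2.08 to 4.39). Il10rb was 1.42-fold higher (1.05 to 1.91). Leaving out Il19, 6 of the genes had at least 20 UMIs. Of these, 1 was at least 2-fold higher and 3 were at least 2-fold lower, where 1.99% and 7.77% of all 11317 genes were. By this ratio Il24 ranked first among 4861 genes with at least 500 UMIs, ahead of the chemokine gene Cxcl3 (13.3) and of Tnfaip2 (7.34), Areg (7.30), which encodes amphiregulin, and Mmp3 (6.00), which encodes a matrix metalloprotease. The lowest were Hpgd, Sostdc1 and Krt15, at 10.4-fold, 10.1-fold and 7.26-fold lower. Krt15, a keratin of resting basal and follicle stem cells, was a gate marker for basal cells.

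The classes also fell into different clusters. Cluster e1 held 180 of the 257 cells with at least 500 CPM of Il19 (70.0%) and 30 of the 885 cells without any (3.39%). The whole of e1 had 13.6 CPM of Il20rb, 1.85 of Il20ra and 2.41 of Il22ra2, against 38.4, 7.91 and 10.7 CPM in e0 and 29.7, 5.91 and 11.1 CPM in e2. Within e1 the difference in Il24 between the outer classes was 2.83-fold (2.21 to 3.69), and the levels of Il20rb did not follow the order seen over all basal cells (12.3 CPM in the Il19-rich cells and 6.50 CPM in those without, on 102 and 7 UMIs; ratio 1.90, 0.887 to 4.83). Those of Il22ra2 did not differ beyond counting error there (1.30, 0.405 to 6.66, on 30 and 3 UMIs). In e0 and e2 only 8 and 7 cells reached 500 CPM, and the intervals for Il24 (1.33, 0.158 to 5.02, and 0.611, 0.0152 to 3.56) and Il20rb included 1. In the smaller clusters e3, e4 and e6, with 14, 19 and 9 such basal cells, Il24 was higher (45.6-fold, 21.6-fold and 23.1-fold) and Il20rb lower (2.41-fold, 3.13-fold and 3.66-fold) in the Il19-rich cells, with intervals that exclude 1. Cluster e8 held another 19 of the Il19-rich cells, and its cells had a median of only 966 UMIs. At that depth 1 Il19 UMI is enough to place a cell in the highest class. Il20ra gave a ratio only in e0 (0.540, 0.0135 to 3.10) and e2 (0.836, 0.0206 to 4.95), on 1 UMI each in the Il19-rich cells. Il22ra2 in e2 had 0.392 (0.00981 to 2.25), also on 1 such UMI. For Il20ra and Il22ra2, no cluster with a ratio showed a difference beyond counting error. The fold differences over all basal cells can hold parts within and between clusters, which were not separated. These splits by cluster were added after the data were seen.

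Depth moved with these classes, as their medians were 25575, 35486, 36856 and 40803 UMIs per cell. Among cells of 20000 to 50000 UMIs (581, 742, 319 and 139 cells) the medians lay closer, between 30078 and 37710. There Il24 was 16.3-fold higher (13.5 to 19.9), Il20rb 2.63-fold lower (2.08 to 3.37), Il20ra 6.08-fold lower (2.52 to 19.1) and Il22ra2 3.10-fold lower (1.88 to 5.44) in the highest class, while the interval for Il10rb included 1 (1.35, 0.904 to 1.99). The first step of Il20ra was not downward there (5.83 and 6.01 CPM). With the stricter limits on cells of the study's methods, at most 5000 genes and 5% mitochondrial UMIs, the difference in Il24 was 8.13-fold. Of the response genes, 7 of 12 with enough UMIs were at least 2-fold higher in the highest class over all depths, and 0 were at least 2-fold lower. Of all 11317 genes, 1.99% and 7.77% were. The 7 were Krt6a, Krt6b, Krt16, Krt17, Il1f6, Cxcl5 and Areg. This count was not repeated within clusters. Of 5 cycling genes, 0 reached 2-fold in either direction (median ratio 0.874), with ratios from 0.651 for Mki67 to 1.06 for Cdk1.

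**Figure D4:**
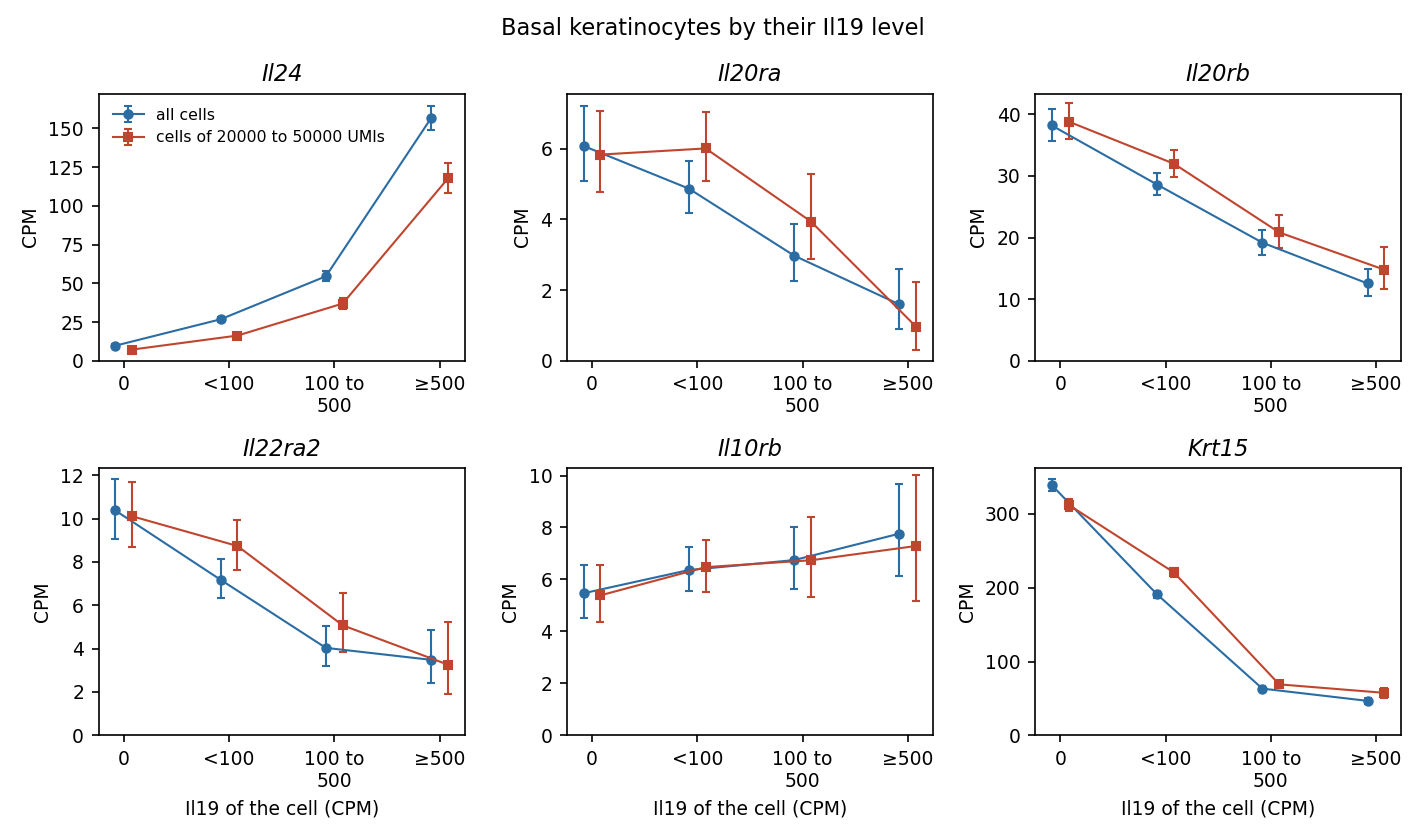
Levels (CPM) of 5 of the genes and of Krt15 in basal keratinocytes by the Il19 level of the cell, over all cells (blue circles) and cells of 20000 to 50000 UMIs (red squares); bars are exact 95% Poisson intervals. Il24 goes up from 9.72 to 157 CPM over all cells, and Il20ra, Il20rb, Il22ra2 and Krt15 go down in both sets between the outer classes.

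Expression of a ligand and of its receptor by one cell was also counted directly. Of the 846 keratinocytes with Il24, 78.8% also had Il19. Il20rb was found in 54.3% of keratinocytes with Il19 and 50.1% of those without. For Il24 these shares were 51.7% and 53.2%. Detection is not level: the CPM of Il20rb was lower in the Il19-rich cells, which were also deeper. Il22ra2 was found in 21.6% of keratinocytes with Il20rb and 13.3% of those without.

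Il22, whose protein is bound by those of Il22ra1 and Il22ra2, was highest in the T cells of both layers. It stood at 3604 CPM in dermal T cells and 1163 CPM in epidermal T cells, in which 126 and 35 cells had a UMI, and at 2.14 CPM in keratinocytes. Every other named dermal gate of at least 45 cells had 12.5 to 30.4 CPM, in which free RNA and expression cannot be told apart. Its near-identical neighbour Iltifb, with which its reads may be split, had 57 dermal and 3 epidermal UMIs.

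Il10 was a transcript of the dermis, and there of monocytes and macrophages. The dermal library had 1165 Il10 UMIs, 78.0% of them in the gates of macrophages, monocytes and dendritic cells (75.5 to 80.4%), which were 2498 of the 4747 cells. These gates, in that order, held 12007689, 9638240 and 2317266 of the 40392866 dermal UMIs of all genes. Monocytes had 55.1 CPM (50.5 to 60.0) and macrophages 30.2 CPM (27.2 to 33.5), a 1.82-fold difference (1.59 to 2.09). T cells followed with 18.2 CPM (13.2 to 24.4), neutrophils with 13.3 (9.22 to 18.6), basophils with 12.7 (6.96 to 21.4) and fibroblasts with 10.9 (8.04 to 14.5). Monocytes exceeded T cells 3.03-fold (2.23 to 4.22). Dendritic cells were lowest of these at 6.47 CPM (3.62 to 10.7), 8.51-fold below monocytes (5.11 to 15.3). When dermal cells were clustered by their expression, Il10 stood at 65.2 CPM in d4, in which 93.3% of cells were monocytes. The macrophage gate was not uniform. Of the clusters in which it was the largest gate, d2 and d0 had 48.2 and 35.2 CPM, but d7, with 96.2% macrophages, had 17.4 CPM. The T cell cluster d1 lay above d7, at 23.5 CPM.

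Fibroblasts, which are not a usual source of IL-10, give a yardstick for the lower values. Above them stood monocytes by 5.05-fold (3.76 to 6.94), macrophages by 2.77-fold (2.05 to 3.83) and T cells by 1.67-fold (1.08 to 2.56), whereas neutrophils did not differ from them beyond counting error (1.22, 0.764 to 1.94). After thinning to 1000 UMIs, 3.75% of monocytes, 2.59% of macrophages, 2.66% of T cells and 1.67% of fibroblasts had an Il10 UMI, with overlapping intervals, and without thinning 15.3%, 14.3%, 11.0% and 7.63%. Few cells held most of it, as the richest 10% had 88.9% of the Il10 UMIs of monocytes and 85.7% of those of macrophages, with at most 29 and 17 in a cell. Since only 15.3% and 14.3% of these cells had any Il10 UMI, such shares follow in part from low detection. Among dermal T cells Il10 was at 28.4 CPM in the 44 cells with a Foxp3 UMI, the factor of regulatory T cells (13.0 to 54.0), 25.5 CPM in 134 cells with neither Foxp3 nor Trdc (16.8 to 37.1) and 7.65 CPM in 94 cells with Trdc, which marks γδ T cells (3.30 to 15.1). The interval of the cells with Trdc lay below that of the cells with neither and overlapped that of the cells with Foxp3. No ratio between these classes was computed, and an overlap alone does not show that levels are alike.

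In the epidermis Il10 was near its limit of detection. Keratinocytes had 64 of its 66 UMIs, at 0.642 CPM (0.494 to 0.820) with a UMI in 63 of 3144 cells and never more than 2 in a cell. The 527 T cells, 204 Langerhans cells and 57 macrophages had 0. For T cells a count of 0 allows up to 1.81 CPM, so a level like that of keratinocytes would not have been detectable there.

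Il10ra, the chain that makes a cell responsive to IL-10, was shared by most myeloid gates of the dermis. It had 1342 dermal UMIs, 68.2% of them in macrophages, monocytes and dendritic cells (65.6 to 70.7%), which also held most dermal UMIs of all genes, as given above for Il10. Monocytes had 46.6 CPM (42.4 to 51.1), basophils 41.8 (30.6 to 55.8), neutrophils 40.7 (33.3 to 49.4), macrophages 33.3 (30.1 to 36.7) and dendritic cells 28.5 (22.0 to 36.2). The first of these did not differ from basophils (1.11, 0.821 to 1.54) or neutrophils (1.14, 0.922 to 1.43) beyond counting error, and exceeded macrophages 1.40-fold (1.22 to 1.60). T cells, at 14.5 CPM (10.1 to 20.1), did not differ beyond counting error from fibroblasts at 13.9 CPM (ratio 1.04, 0.668 to 1.61). The cluster d11, in which 89.5% of cells were mast cells, had 18.9 CPM on 3 UMIs, too few to place it. In the epidermis Il10ra had 62 UMIs, with 9.06 CPM in T cells (5.07 to 14.9), 6.88 in Langerhans cells (3.56 to 12.0) and 0.120 in keratinocytes (0.0622 to 0.210).

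Of the dermal gates compared here, Il10rb was highest in macrophages and neutrophils. Macrophages had 81.5 CPM (76.5 to 86.8) with a UMI in 47.9% of cells, and neutrophils 78.7 CPM (68.2 to 90.4). These did not differ beyond counting error (1.04, 0.889 to 1.21). The small cluster d10 (52 cells), in which 53.8% of cells were Schwann cells, stood at 112 CPM, on 36 UMIs. Monocytes had 56.8 CPM, 1.44-fold below macrophages (1.29 to 1.60), and the order of both types was thus opposite to that for Il10 and Il10ra. Dendritic cells (35.8 CPM), fibroblasts (33.2), T cells (28.5) and basophils (22.7) lay lower. Dermal macrophages exceeded epidermal keratinocytes 12.6-fold (11.4 to 13.9), although both values come from different libraries. Of macrophages with Il10ra, 58.9% also had Il10rb, against 44.2% of those without, and in monocytes the shares were 39.6% and 33.5%.

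**Figure D5:**
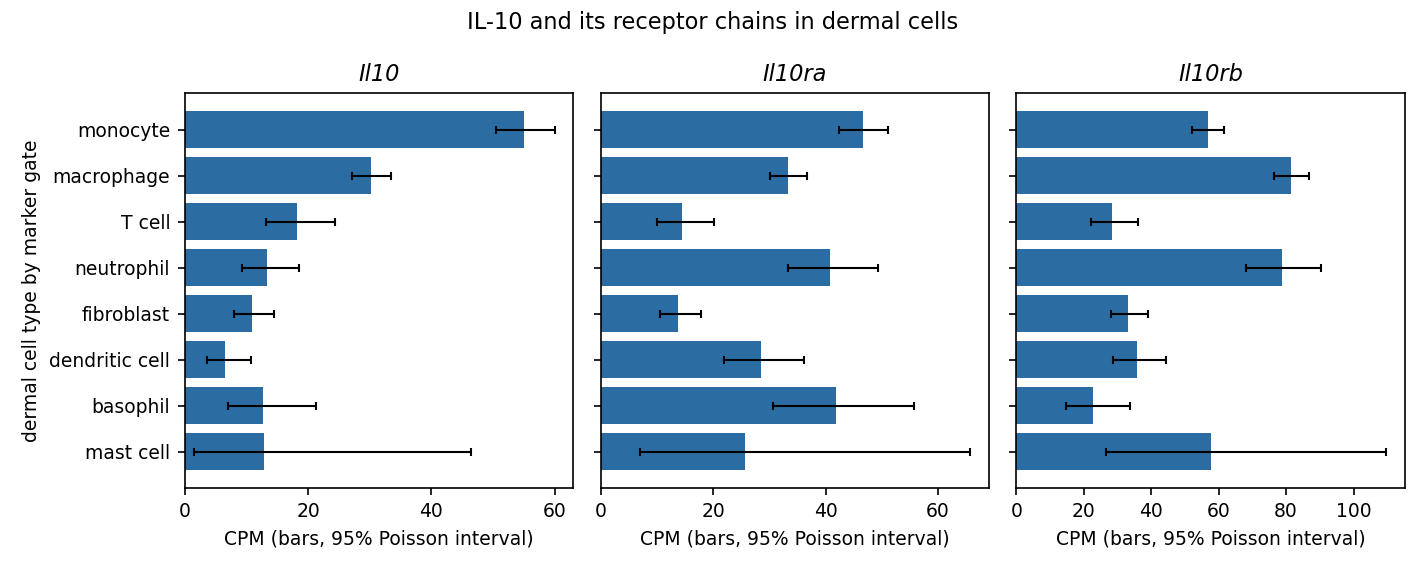
Levels (CPM) of Il10, Il10ra and Il10rb in dermal cell types set by marker gates; bars end at the level and error bars are exact 95% Poisson intervals. Of the types shown, Il10 is highest in monocytes (55.1 CPM), Il10ra is near 40 CPM or above in monocytes, basophils and neutrophils, and Il10rb is highest in macrophages (81.5 CPM) and neutrophils (78.7 CPM).

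Set against dermal T cells, the macrophages, monocytes and dendritic cells together were higher in all 3 genes of the IL-10 arm. Il10 was 2.09-fold higher (1.54 to 2.89), Il10ra 2.64-fold (1.89 to 3.82) and Il10rb 2.36-fold (1.85 to 3.04). Of all 11778 genes with at least 20 UMIs, 18.6% were at least 2-fold higher. Il19 (38 and 1 UMIs) and Il20rb (20 and 1 UMIs) reached that limit only through the macrophages, monocytes and dendritic cells, which held far more UMIs than the T cells. Their intervals include 1, and they are not counted as higher. Of 16 pathway genes, 0 were at least 2-fold higher and 4 were at least 2-fold lower, where 16.4% of all genes were. Between monocytes and macrophages, 4 of the genes had enough UMIs and 0 passed 2-fold in either direction, where 6.64% of all 11185 genes were at least 2-fold higher in monocytes and 10.8% lower. There Il10rb was lower in monocytes (0.696, 0.626 to 0.774), and the inhibitor gene Socs3 stood at 235 CPM in monocytes and 125 CPM in macrophages.

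For each of the 8 genes with at least 100 UMIs, the genes most like it were taken over 13 groups of at least 50 cells, by Pearson's r of log2(CPM + 1) among 12665 genes. Il19 was most like Sema3c (0.987), Igfbp2 (0.978) and Sfrp1 (0.977). Il24 was most like Fermt1 (0.995), Cth and Tfap2b, Il20ra like Lor (0.996), Ntf5 and Marveld3, Il20rb like Ak4 (0.979), Celsr2 and Ppl, and Il22ra2 like Gm44613 (0.980), Itgb6 and Guca2a. In the IL-10 arm, Il10 was most like Gdf15 (0.962), Ifit3 (0.945) and Ear2 (0.925), Il10ra like Gmfg (0.974), Nrros and Gbp7, and Il10rb like Abcg1 (0.960), Lyn and Hip1. The 13 groups come from only 2 libraries and share their depth and free RNA, so these values only describe which profiles are alike.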

How the data were processed

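The authors deposited raw UMI counts per gene and barcode from Cell Ranger (3.0.2 in the matrix header, build mm10 and CASAVA per the submitters' processing notes), without normalization. The annotation is not given in the sources used here. Of the 31053 gene identifiers, 31011 were found in GENCODE M21. The 10 genes, the marker and gene lists and the comparisons were chosen with earlier results of these data known, and the gate limits and the classes by Il19 were set after the values were seen.

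Barcodes had to show 200 or more genes and no more than 10% mitochondrial UMIs, which left 4747 of 5376 in the dermis (41258087 UMIs before filtering) and 4173 of 5258 in the epidermis (108768396 UMIs). A marker score per cell, the mean of its 3 highest scaled markers, had to reach 0.3 and lead by 0.05 (keratinocytes 0.5, spinous 0.4, follicle 0.5), and 307 dermal and 99 epidermal cells lay within 0.05 of the limit, with 382 keratinocytes near that for spinous cells. S100a8 and S100a9 were left out of the neutrophil gate. In the dermis 278 cells lay between gates and 282 in none. Doublets were kept, and removing the 180 dermal and 139 epidermal cells with the highest Scrublet scores was an alternative. UMIs were summed per gate and divided by the total of the gate (CPM). Shares carry Clopper-Pearson, levels Poisson and ratios conditional exact intervals at 95%. Where a count was 0, 3 counts gave the limit. Ratios over all genes needed at least 20 UMIs over both gates, and no p-value was computed. The ratios and likeness were tested on simulated data. The rule for genes named in the text took the 10 genes, fixed lists of pathway and response genes, the 3 most alike genes by Pearson's r and, chosen after their values were seen, the leading genes between the classes by Il19. The software comprised scanpy 1.11.5, igraph 0.11.9, pandas 2.3.3, scipy 1.17.1, numpy 2.4.6 and matplotlib 3.10.9 under Python 3.11.15.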

Additional observations from a re-analysis of the deposited data

How the results depend on the processing

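No paired analysis was possible because there was 1 library of epidermis and 1 of dermis. Beside the ratios between classes by Il19, of 225 values recomputed for 31 results, 160 stayed within their limits and 65 moved. The limit was counting error or, for counts of genes past 2-fold, a set fold change of the count. No suprabasal over basal ratio whose interval excluded 1 crossed 1, but ratios whose intervals included it did, Il20 (1.66) to 0 under 2 alternatives given below and Il10rb (1.04) to 0.938 with clusters. The cause of the moves was not tested, except that thinning lowers detection by construction.

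With at most 5000 genes and 5% mitochondrial UMIs, the limits of the study's methods, which kept 1593 of 2606 basal keratinocytes, the keratinocyte shares were 97.2% (Il19), 96.5% (Il24) and 97.0% (Il20rb), the suprabasal over basal ratios 0.303 (Il19), 0.439 (Il24), 0.364 (Il20ra) and 0 (Il20), and basal cells with a UMI 57.4% (Il19) and 21.8% (Il24). Between the outer classes by Il19, Il24 was then 8.13-fold higher, against 15.3-fold to 16.5-fold with no filter, without doublets, with clusters for gates or without shared barcodes. Within single clusters, an alternative added after seeing the data, it ran from 0.611-fold (e2, on 1 UMI in the Il19-rich cells) to 45.6-fold (e3) in the 6 that gave a ratio, with 2.83-fold in e1, which held 180 of the 257 Il19-rich cells. In e1 the ratios of Il20rb (0.328 over all basal cells) and Il22ra2 (0.336) turned to 1.90 and 1.30, with intervals that include 1. Without any filter on cells, the cells with a UMI were 56.8% (Il19), 24.0% (Il24), 10.4% (Il20ra), 43.9% (Il20rb), 14.8% (Il22ra2) and 43.0% (Il10rb, macrophages). Without doublets the Il19 share was 99.0%.

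With clusters in place of gates, the shares were 99.1% (Il19), 100% (Il20), 99.3% (Il24), 99.0% (Il20ra), 98.8% (Il20rb), 81.5% (Il10), 72.7% (Il10ra) and 72.6% (Il10rb), the ratios 0.442 (Il19), 0 (Il20) and 1.12 (Il20rb), and the cells with a UMI 62.9% (Il19), 51.3% (Il20rb), 18.2% (Il10, monocytes) and 44.3% (Il10rb, macrophages). With cells weighted equally, the ratios were 0.355 (Il19) and 0.440 (Il24). Without the richest cell, the Il20 share was 100% and that of dendritic cells in dermal Il22ra2 was 0%.

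Thinned to 1000 UMIs, the shares were 91.9% (Il19), 91.9% (Il24), 93.8% (Il20ra), 94.1% (Il20rb), 68.6% (Il10), 61.3% (Il10ra) and 59.8% (Il10rb), the ratios 0.290 (Il19), 0.165 (Il24) and 1.46 (Il10rb), and the genes past 2-fold 291 (higher in spinous than basal cells; 571 before) and 1217 (lower in phagocytes than T cells; 1932 before). Cells with a UMI at 1000 and 2000 UMIs were 10.8% and 18.7% (Il19, basal), 3.19% and 4.87% (Il24), 0.551% and 0.958% (Il20ra), 2.80% and 5.99% (Il20rb), 0.709% and 1.64% (Il22ra2), 4.18% and 6% (Il19, fibroblasts), 3.75% and 7.35% (Il10, monocytes), 4.48% and 9.95% (Il10ra, monocytes) and 8.84% and 14.4% (Il10rb, macrophages). Leaving out barcodes found in both libraries, an alternative chosen after seeing the data, moved 0 of 31 results. Low counts limit epidermal Il20 (7 UMIs) and Il22ra1 (10) and dermal Il22ra2 (8) and Il20ra (2).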
